A study of Mus musculus with 12 samples.

Results

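The genes described here are 10 inhibitors of mitogen-activated protein kinase (MAPK) signaling: 7 dual-specificity phosphatases (Dusp1, Dusp2, Dusp4, Dusp5, Dusp6, Dusp10 and Dusp16), 2 Sprouty genes (Spry1 and Spry2) and the Sprouty-related gene Spred1. They were taken by symbol, each matched 1 Ensembl ID, and together they are 10 of the 56941 gene IDs counted. They were measured by bulk RNA sequencing in RAW264.7 cells, a murine macrophage line. Compressed macrophages (n = 6) lay on a porous insert under an agarose cushion carrying a 3-D printed weight that applied 0.14 kPa, and control macrophages (n = 6) lay under the cushion alone. Both groups were taken after 24 h in normal culture, with no genetic change, no cytokine and no tumor cells, so they are 1 cell line in a monolayer under a weight. Total counts ranged from 33460807 to 39103987 in compressed libraries and from 37948795 to 40463545 in control libraries. The sources do not state whether the replicates were separate cultures. The p-values therefore cover the variation among these 6 and 6 samples, part or all of which may be technical.

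MAPKs are switched on by phosphorylation of a threonine and a tyrosine, and dual-specificity phosphatases remove both phosphates. Some, such as DUSP5 and DUSP6, act on ERK, others, such as DUSP10 and DUSP16, act on JNK and p38, and many are themselves transcribed when the pathway is active, which makes them feedback inhibitors. Sprouty and SPRED proteins act further up, between growth factor receptors and RAS signaling. In macrophages DUSP1 is best known as a brake on p38 and on inflammatory cytokine production.

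The promoters of 3 members are shown because Dusp5 had the largest change of the group and because Dusp1 and Dusp2, both nuclear phosphatases, went in opposite directions. Each is the 250 bases before the start of the gene, 5′ to 3′ on the strand of the gene, from RefSeq for GRCm38.p6. Dusp5 is at chr19:53528895-53529144 on the plus strand, Dusp1 at chr17:26508473-26508722 on the minus strand and Dusp2 at chr2:127335909-127336158 on the plus strand. Capitals mark matches to the cAMP response element (CRE) half-site TGACGT on either strand, including the full element TGACGTCA, to the CArG box named for serum response factor, and to the E-box CACGTG.
Dusp5: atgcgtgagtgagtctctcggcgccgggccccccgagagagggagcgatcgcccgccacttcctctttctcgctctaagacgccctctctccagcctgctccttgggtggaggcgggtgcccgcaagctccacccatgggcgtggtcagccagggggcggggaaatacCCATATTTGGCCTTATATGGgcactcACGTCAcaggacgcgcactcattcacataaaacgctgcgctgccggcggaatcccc
Dusp1: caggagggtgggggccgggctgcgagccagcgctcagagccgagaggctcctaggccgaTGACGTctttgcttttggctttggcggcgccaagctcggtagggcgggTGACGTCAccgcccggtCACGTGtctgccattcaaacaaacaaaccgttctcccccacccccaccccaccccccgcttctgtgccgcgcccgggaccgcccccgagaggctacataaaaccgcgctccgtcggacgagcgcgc
Dusp2: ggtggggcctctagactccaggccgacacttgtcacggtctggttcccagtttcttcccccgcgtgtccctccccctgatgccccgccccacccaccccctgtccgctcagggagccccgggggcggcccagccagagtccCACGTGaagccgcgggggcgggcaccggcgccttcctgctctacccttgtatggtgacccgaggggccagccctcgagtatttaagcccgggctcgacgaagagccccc
In Dusp5 the capitals are 2 adjoining CArG boxes at 82 to 73 and 72 to 63 bases before the start, and a CRE half-site on the minus strand at 56 to 51. In Dusp1 they are a CRE half-site at 191 to 186, a full CRE at 143 to 136 and an E-box at 126 to 121. In Dusp2 they are an E-box at 109 to 104.

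Of the 10 members, 9 had a promoter in that table, and the motifs were searched on both strands in these 9 and in 32851 promoter windows of the same length. A CArG box was found in 1 member (Dusp5) and in 1.47% of all windows. The full CRE was found in 1 member (Dusp1) and in 1.55% of windows, and the half-site, which each full element also holds, in 2 members (Dusp1 and Dusp5) and in 6.47%. The E-box was found in 2 members (Dusp1 and Dusp2) and in 6.02% of windows. The AP-1 letters TGANTCA (6.75% of windows), the NF-kB motif (3.9%) and the TATA letters TATAAA (12.4%) were found in 0 of the 9 members. A match says only that these letters are present in the window.

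Macrophage identity was checked first. The 10 macrophage markers summed to 7918 to 9787 CPM (counts scaled by the TMM-adjusted library size to a common total) in compressed libraries and to 6424 to 6875 CPM in control libraries. Of the 10, 5 rose and 3 fell: Lyz2 averaged 4204 CPM in compressed and 2678 CPM in control macrophages and Cd14 1488 and 969 CPM, while Cd68, Csf1r and Fcgr1 fell by 0.17, 0.22 and 0.39 on the log2 scale (edgeR adjusted p = 0.00247, 0.0495 and 7.95e-05). The markers of fibroblasts, of epithelium and endothelium, and of lymphocytes and granulocytes each summed to less than 1 CPM in all 12 libraries, and 5 of the 6 lymphocyte and granulocyte markers and 1 of the 5 fibroblast markers were at 0 throughout. The mitochondrial share of counts was 2.93% to 3.41% in compressed and 3.03% to 3.52% in control libraries. Compressed replicate 6 stood apart: over all tested genes its root mean square log2 distance from the mean of the other libraries of its group was 0.698, against 0.227 to 0.291 for the other 5 compressed libraries and 0.195 to 0.220 for controls. The counts and the members that this library moved are therefore given with and without it. In bulk RNA, a change in the number of expressing cells and a change in RNA per cell cannot be told apart.

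Of the 10 members, 8 differed between compressed and control macrophages. Dusp1, Dusp5, Dusp6, Dusp10, Dusp16 and Spred1 were higher in compressed macrophages, Dusp2 and Spry1 were lower, and Dusp4 and Spry2 did not pass the test. Here and below, a gene rose or fell when its Benjamini-Hochberg adjusted p was 0.05 or less in edgeR's quasi-likelihood test over 15001 genes. All 10 members passed the filter on low counts. Change was common in these libraries: 46.4% of all tested genes passed, 24.5% higher and 21.9% lower, and 8 of 10 members is read against that share. The median log2 fold change (compressed over control) was 0.36 over the members and 0.02 over all tested genes. The CPM ranges of the groups did not overlap for 4 members, 3 higher (Dusp1, Dusp5 and Dusp6) and 1 lower (Spry1), and for 33.6% of all tested genes, 16.5% higher and 17% lower. Without compressed replicate 6, Dusp4 also passed, giving 7 members higher and 2 lower, and the log2 fold changes of Dusp1, Dusp6, Dusp10 and Spry1 were 0.74, 0.66, 0.49 and -0.57. In that fit the share of all 15117 genes then tested that passed was 66%, 33.8% higher and 32.2% lower.

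**Figure D1:**
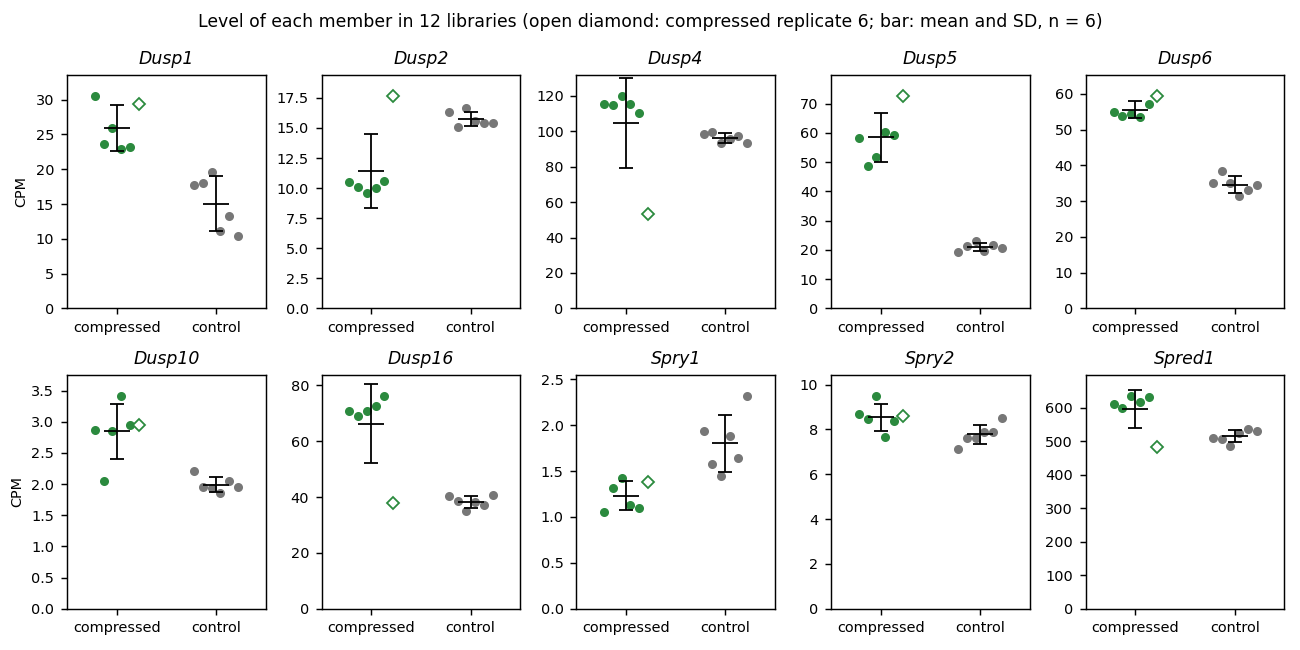
CPM of each member in each of the 12 libraries, 1 point per library, with the mean and SD of 6 libraries as a bar, compressed on the left and control on the right. The groups stand apart for Dusp1, Dusp5, Dusp6 and Spry1, and the open diamond of compressed replicate 6 lies away from the other compressed points for Dusp2, Dusp4, Dusp16 and Spred1.

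The ERK-directed phosphatases Dusp5 and Dusp6 both rose. Dusp5, the nuclear ERK phosphatase whose promoter holds the CArG boxes shown above, had a lowest, median and highest level of 48.8, 58.8 and 72.7 CPM in compressed libraries, against 19.1, 21.1 and 23.1 CPM in control libraries. The lowest compressed library lay above the highest control library. Its mean was 58.5 ± 8.32 CPM in compressed and 20.96 ± 1.47 CPM in control macrophages (SD, n = 6 each), a 2.79-fold increase (log2 fold change 1.48, SE 0.089, 95% interval 1.29 to 1.67, edgeR adjusted p = 1.63e-08). Compressed replicate 6 was the highest library, and without it the log2 fold change was 1.41 (edgeR adjusted p = 4.41e-14).

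Dusp6 encodes the cytoplasmic ERK phosphatase MKP-3. It had 53.5, 54.6 and 59.5 CPM (lowest, median, highest) in compressed libraries, against 31.3, 34.8 and 38.4 CPM in control libraries. The groups did not overlap, and the spread within each was narrow. The mean was 55.6 ± 2.33 CPM in compressed and 34.6 ± 2.35 CPM in control macrophages (log2 fold change 0.68, SE 0.052, 95% interval 0.57 to 0.80, edgeR adjusted p = 1.61e-07). Replicate 6 again gave the highest value, 0.12 (log2) above the mean of the other 5.

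Within a library, the counts of Dusp5 and Dusp6 can be set against each other with no scaling between libraries. In compressed libraries the ratio of Dusp5 to Dusp6 counts was 0.906 at the lowest, 1.05 at the median and 1.22 at the highest, and in control libraries 0.548, 0.612 and 0.657. The ratio was higher in all 6 compressed libraries than in any control library. The mean log2 ratio was 0.79 higher in compressed macrophages, and 0.74 to 0.83 higher when any 1 library was left out. Dusp5 mRNA therefore increased more than Dusp6 mRNA.

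Nuclear phosphatases of broader or lymphoid range did not move together. Dusp1, which encodes MKP-1, had 22.9, 24.8 and 30.5 CPM (lowest, median, highest) in compressed libraries, against 10.4, 15.5 and 19.7 CPM in control libraries. Its groups did not overlap, but the controls fell into a higher set, replicates 1 to 3 at 17.7 to 19.7 CPM, and a lower set, replicates 4 to 6 at 10.4 to 13.3 CPM. The mean was 25.9 ± 3.32 CPM in compressed and 15.0 ± 3.92 CPM in control macrophages (log2 fold change 0.79, SE 0.15, 95% interval 0.45 to 1.12, edgeR adjusted p = 8.69e-04). In the annotation, Dusp1 overlaps Ergic1 on the opposite strand, and the strand setting of the counts is not given in the sources used here. Ergic1, a gene of the endoplasmic reticulum to Golgi compartment, had 117 ± 4.17 CPM in compressed and 136 ± 3.56 CPM in control macrophages and fell by 0.21 on the log2 scale (edgeR adjusted p = 5.71e-04). Whether reads of one were counted for the other was not tested. Opposite-strand genes that overlap Dusp5, Dusp10, Dusp16 and Spry1 had 27, 51, 5 and 7 counts over all 12 libraries.

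Dusp2 encodes PAC-1, a phosphatase first known from activated lymphocytes, and it went the other way. It had 9.62, 10.3 and 17.7 CPM (lowest, median, highest) in compressed libraries, against 15.1, 15.5 and 16.7 CPM in control libraries. Compressed replicates 1 to 5 lay at 9.62 to 10.6 CPM, below all controls, and replicate 6 lay above all controls. The mean was 11.4 ± 3.08 CPM in compressed and 15.7 ± 0.620 CPM in control macrophages, a log2 fold change of -0.46 (SE 0.13, 95% interval -0.74 to -0.18, edgeR adjusted p = 0.0104). Without replicate 6 the log2 fold change was -0.63 (edgeR adjusted p = 2.60e-10).

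The opposite directions of Dusp1 and Dusp2 also showed within libraries. The ratio of Dusp1 to Dusp2 counts was 1.66, 2.31 and 2.90 (lowest, median, highest) in compressed libraries and 0.676, 0.973 and 1.20 in control libraries. The groups did not overlap, and the lowest compressed value was that of replicate 6. The mean log2 ratio was 1.32 higher in compressed macrophages, and 1.22 to 1.41 higher with any 1 library left out.

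Dusp4 encodes MKP-2, a nuclear phosphatase closely related to MKP-1. It had 53.4, 115 and 120 CPM (lowest, median, highest) in compressed libraries, against 93.2, 96.3 and 99.3 CPM in control libraries. Compressed replicates 1 to 5 lay above all controls and replicate 6 lay far below them, 1.11 below the mean of the other 5 on the log2 scale, where those 5 had an SD of 0.042. With 6 libraries Dusp4 did not pass (log2 fold change 0.12, 95% interval -0.20 to 0.45, edgeR adjusted p = 0.536). Without replicate 6 its log2 fold change was 0.26 (edgeR adjusted p = 1.97e-07).

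Both JNK- and p38-directed members rose. Dusp16 encodes MKP-7, which acts on JNK. It had 37.8, 70.8 and 76.2 CPM (lowest, median, highest) in compressed libraries, against 34.9, 38.3 and 40.8 CPM in control libraries. Compressed replicates 1 to 5 lay at 69.1 CPM or more, well above all controls, while replicate 6 lay inside the control range. The mean was 66.2 ± 14.1 CPM in compressed and 38.3 ± 2.14 CPM in control macrophages (log2 fold change 0.79, SE 0.13, 95% interval 0.50 to 1.08, edgeR adjusted p = 2.74e-04), and without replicate 6 the log2 fold change was 0.91 (edgeR adjusted p = 7.78e-14).

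Dusp10, the MKP-5 gene, whose product acts on JNK and p38, had 2.05, 2.90 and 3.41 CPM (lowest, median, highest) in compressed libraries against 1.86, 1.95 and 2.21 CPM in control libraries. Compressed replicate 2 lay inside the control range, and the other 5 compressed libraries lay above it. The mean was 2.84 ± 0.443 CPM in compressed and 1.99 ± 0.122 CPM in control macrophages (log2 fold change 0.51, SE 0.11, 95% interval 0.27 to 0.75, edgeR adjusted p = 0.00171). The ratio of Dusp16 to Dusp10 counts overlapped between the groups. It was 12.8, 24.8 and 33.8 in compressed libraries and 18, 19 and 20.8 in control libraries (lowest, median, highest). The lowest compressed ratio was that of replicate 6. The mean log2 ratio was 0.26 higher in compressed macrophages, 0.42 higher without compressed replicate 6 and 0.15 higher without compressed replicate 2.

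The 2 Sprouty genes differed. Spry1 had 1.06, 1.22 and 1.42 CPM (lowest, median, highest) in compressed libraries, against 1.44, 1.76 and 2.32 CPM in control libraries. The ranges were close but did not overlap, and rested on 262 counts over the 6 compressed and 430 counts over the 6 control libraries. The mean was 1.23 ± 0.160 CPM in compressed and 1.80 ± 0.314 CPM in control macrophages, a log2 fold change of -0.54 (SE 0.13, 95% interval -0.83 to -0.25, edgeR adjusted p = 0.00432). Spry2 had 7.64, 8.52 and 9.49 CPM in compressed libraries and 7.15, 7.76 and 8.50 CPM in control libraries, and the groups overlapped. It did not pass (log2 fold change 0.14, 95% interval 0.00035 to 0.27, edgeR adjusted p = 0.0946). The ratio of Spry1 to Spry2 counts was 0.122, 0.149 and 0.161 in compressed libraries and 0.190, 0.224 and 0.273 in control libraries (lowest, median, highest), without overlap. Its mean log2 was 0.67 lower in compressed macrophages (a difference of -0.67), and between -0.73 and -0.62 with any 1 library left out.

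**Figure D2:**
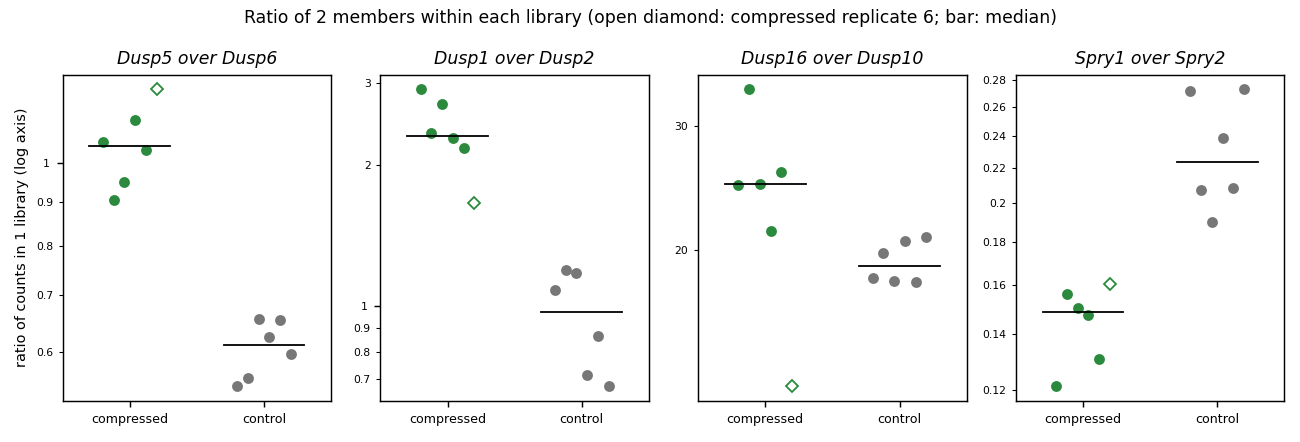
Ratio of the counts of 2 members within each library on a log axis, 1 point per library, with the median as a bar, compressed on the left and control on the right. The groups stand apart for Dusp5 over Dusp6, Dusp1 over Dusp2 and Spry1 over Spry2, and overlap for Dusp16 over Dusp10, where compressed replicate 6 (open diamond) has the lowest ratio at 12.8.

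Spred1, whose product brings the RAS inactivator neurofibromin to the membrane, rose the least of the 6 members that rose. It had 483, 615 and 635 CPM (lowest, median, highest) in compressed libraries, against 486, 518 and 538 CPM in control libraries. Compressed replicates 1 to 5 lay at 599 CPM or more, above all controls, and replicate 6 lay below all controls. The mean was 597 ± 57.3 CPM in compressed and 516 ± 19.2 CPM in control macrophages (log2 fold change 0.21, SE 0.065, 95% interval 0.07 to 0.35, edgeR adjusted p = 0.0166). Without replicate 6 the log2 fold change was 0.26 (edgeR adjusted p = 2.18e-07), and with scaling by library size alone it was 0.15 and did not pass (edgeR adjusted p = 0.0897).

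Levels can be compared between genes only per length, here as mean CPM per kilobase of annotated exon. In compressed macrophages the order was Spred1 (88.0 ± 8.44), Dusp4 (38.3 ± 9.26), Dusp5 (23.7 ± 3.36), Dusp6 (17.7 ± 0.743), Dusp16 (8.49 ± 1.81), Dusp1 (7.83 ± 1.00), Dusp2 (5.71 ± 1.54), Spry2 (4.09 ± 0.285), Dusp10 (0.935 ± 0.146) and Spry1 (0.424 ± 0.055). In control macrophages it was Spred1 (76.1 ± 2.84), Dusp4 (35.1 ± 0.959), Dusp6 (11.0 ± 0.751), Dusp5 (8.47 ± 0.594), Dusp2 (7.86 ± 0.309), Dusp16 (4.91 ± 0.275), Dusp1 (4.54 ± 1.18), Spry2 (3.73 ± 0.213), Dusp10 (0.655 ± 0.040) and Spry1 (0.620 ± 0.108). Dusp5 stood above Dusp6 in compressed and below it in control macrophages, with ranges that did not overlap in either group. Neighbours in the order whose ranges overlapped were Dusp4 and Dusp5, Dusp16 and Dusp1, and Dusp1 and Dusp2 in compressed macrophages. In control macrophages they were Dusp5 and Dusp2, Dusp16 and Dusp1, Dusp1 and Spry2, and Dusp10 and Spry1.

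The rest of the DUSP, Sprouty and SPRED genes were counted from a list of 18, of which 15 could be tested. Spry3 matched no ID, and Spry4 and Dusp26 did not pass the filter on low counts. Of the 15, 9 rose, 3 fell and 3 did not pass (80% called), and the median log2 fold change was 0.31. Without compressed replicate 6, 10 rose and 3 fell, 13 of the 15, against 66% of all genes in that fit. Dusp8, which acts on JNK and p38, averaged 4.86 ± 0.531 CPM in compressed and 1.35 ± 0.115 CPM in control macrophages, and its log2 fold change of 1.85 was larger than that of any member (SE 0.095, edgeR adjusted p = 4.57e-09). Spred3, the SPRED gene whose protein lacks a functional KIT-binding domain, averaged 42.7 ± 7.46 CPM in compressed and 19.6 ± 1.92 CPM in control macrophages (log2 fold change 1.12, edgeR adjusted p = 2.37e-06).

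The cytoplasmic ERK phosphatases did not share a direction. Dusp7, a close relative of Dusp6, averaged 36.3 ± 3.36 CPM in compressed and 27.4 ± 0.391 CPM in control macrophages and rose (log2 fold change 0.41, edgeR adjusted p = 6.17e-05). Dusp9, the third cytoplasmic ERK phosphatase, averaged 1.66 ± 0.226 CPM in compressed and 3.07 ± 0.436 CPM in control macrophages and fell by 0.89 on the log2 scale (edgeR adjusted p = 4.31e-05). Among the atypical phosphatases, which lack a MAPK-docking domain, Dusp14 rose (log2 fold change 0.77, edgeR adjusted p = 6.30e-05) and Dusp12 fell by 0.53 on the log2 scale (edgeR adjusted p = 2.30e-05). Styx, a family member without catalytic activity, fell by 0.37 (edgeR adjusted p = 0.00290). Dusp7 and Styx were named after their values were seen.

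**Figure D3:**
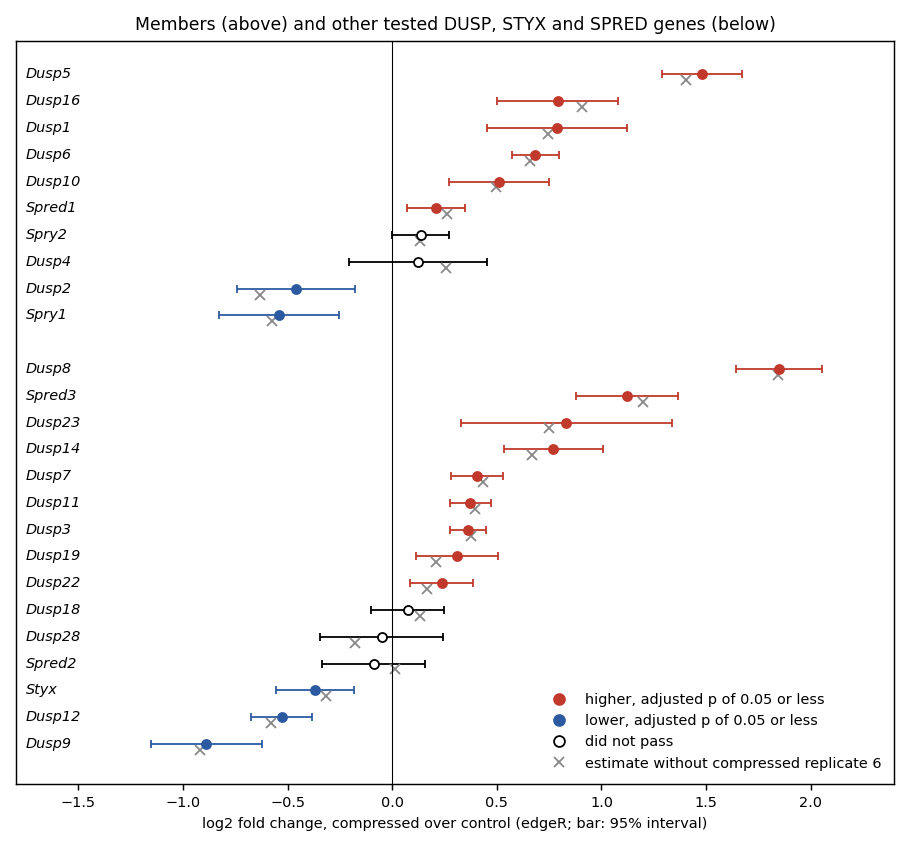
Log2 fold change (compressed over control) with its 95% interval for the 10 members above and for the 15 other tested family genes below, ordered by size, filled where edgeR's adjusted p was 0.05 or less. Grey crosses give the value without compressed replicate 6, and Dusp5 at 1.48 and Dusp8 at 1.85 lie farthest to the right in their groups.

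Of 24 genes of the RAS-ERK cascade, 23 were tested: 4 rose, 3 fell and 16 did not pass (30.4% called, against the 46.4% of all genes), and their median log2 fold change was 0.01. Without compressed replicate 6, 9 rose and 8 fell, 17 of the 23, against 66% of all genes in that fit. The list was thus not below the share of all genes there. Rras, a RAS relative, averaged 30.6 ± 7.03 CPM in compressed and 10.7 ± 0.765 CPM in control macrophages (log2 fold change 1.52, edgeR adjusted p = 2.89e-07). Mapk3, which encodes ERK1, averaged 157 ± 13.2 CPM in compressed and 116 ± 2.29 CPM in control macrophages (log2 fold change 0.43, edgeR adjusted p = 1.73e-05). Mras, another RAS relative, fell by 0.47 on the log2 scale (edgeR adjusted p = 4.76e-04). Gab2, a docking protein for growth factor receptors, rose by 0.49 on the log2 scale (edgeR adjusted p = 0.0317). Compressed replicate 6 had 33.7 CPM of Gab2 and the other 5 compressed libraries 71.5 to 83.8 CPM, and without it the log2 fold change was 0.63 (edgeR adjusted p = 9.06e-11). The call was lost with library size alone (0.43, edgeR adjusted p = 0.0577), with the replicate block (0.44, 0.0770) and in 10 of the 12 fits that left out 1 library (0.44 to 0.49).

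Of 24 genes of the p38 and JNK cascade, 22 were tested: 7 rose, 3 fell and 12 did not pass (45.5% called), and their median log2 fold change was 0.04. Without compressed replicate 6, 10 rose and 5 fell, 15 of the 22, against 66% of all genes in that fit. The scaffold gene Mapk8ip3 (log2 fold change 0.57, edgeR adjusted p = 0.00431), the kinase genes Map3k20 (0.56, adjusted p = 1.92e-04) and Map3k1 (0.45, adjusted p = 0.00537) rose. For Mapk8ip3 and Map3k1, compressed replicate 6 (78.6 and 58.5 CPM) lay below all controls (83.8 and 60.6 CPM or more). Compressed replicates 1 to 5 lay above all controls, at 123 and 86.2 CPM or more. Without replicate 6 the log2 fold changes of these genes were 0.68 and 0.54. Map2k3, an activator of p38, averaged 137 ± 12.8 CPM in compressed and 192 ± 6.07 CPM in control macrophages and fell by 0.49 on the log2 scale (edgeR adjusted p = 1.15e-05). Map3k11 fell by 0.16 (edgeR adjusted p = 0.00426). Mapk13, a p38 isoform, had the largest log2 fold change of this list, 1.52, but at 0.669 CPM in compressed and 0.230 CPM in control macrophages (edgeR adjusted p = 2.30e-04), and was named after its values were seen.

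Genes listed as inhibitors of RAS and MAPK signaling outside the family were split. Of 24 listed genes, 22 were tested: 5 rose, 4 fell and 13 did not pass (40.9% called). Their median log2 fold change was 0.00. Without compressed replicate 6, 9 rose and 6 fell, 15 of the 22, against 66% of all genes in that fit. The list also held Peak1, a scaffold gene not known as an inhibitor. Peak1 did not pass (log2 fold change 0.44, edgeR adjusted p = 0.167), and without compressed replicate 6 it rose (0.62, edgeR adjusted p = 5.99e-07). Ptpn5, a tyrosine phosphatase that acts on ERK and p38, averaged 20.98 ± 2.93 CPM in compressed and 7.79 ± 0.221 CPM in control macrophages (log2 fold change 1.43, edgeR adjusted p = 1.42e-08). Ptpn7, another tyrosine phosphatase of the list, went the other way. It averaged 141 ± 8.36 CPM in compressed and 178 ± 2.49 CPM in control macrophages (log2 fold change -0.33, edgeR adjusted p = 4.14e-05). Ptpn7 was named after its values were seen. Errfi1, an inhibitor of the EGF receptor, averaged 35.5 ± 4.26 CPM in compressed and 17.8 ± 0.366 CPM in control macrophages (log2 fold change 1.00, edgeR adjusted p = 1.21e-07). The RAS GTPase-activating genes went both ways: Rasa4 rose by 0.55 (edgeR adjusted p = 7.12e-06), while Rasa3 fell by 0.49 (0.00669) and Rasa1 fell by 0.34 (0.00122) on the log2 scale.

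Genes commonly induced by RAS-ERK signaling had the highest median of the 5 lists. Of 20 listed genes, 19 were tested: 12 rose, 0 fell and 7 did not pass (63.2% called), and the median log2 fold change was 0.48. Those that did not pass were Etv5, Ccnd1, Epha2, Fos, Fosl1, Ier2 and Emp1. Their log2 fold changes ran from -0.54 (Fos) to 0.29 (Epha2), and they were named after their values were seen. At an unadjusted p under 0.05 in edgeR 0 fell, and DESeq2 called 0 lower. Without compressed replicate 6 edgeR called 13 higher and 2 lower (Ier2 and Etv5), against 66% of all genes called in that fit. With the replicate block edgeR called 1 lower (Fos), and without control replicate 6 also 1. Lif, a cytokine of the IL-6 family, averaged 167 ± 28.1 CPM in compressed and 13.6 ± 1.79 CPM in control macrophages (log2 fold change 3.62, edgeR adjusted p = 1.74e-10). Hbegf, an EGF receptor ligand, averaged 40.7 ± 6.85 CPM in compressed and 8.34 ± 0.827 CPM in control macrophages (log2 fold change 2.29, edgeR adjusted p = 2.59e-09). Phlda1 averaged 136 ± 30.4 CPM in compressed and 37.2 ± 1.71 CPM in control macrophages (log2 fold change 1.87, edgeR adjusted p = 3.65e-08). Areg, another EGF receptor ligand, averaged 1.31 ± 0.445 CPM in compressed and 0.448 ± 0.062 CPM in control macrophages (log2 fold change 1.54, edgeR adjusted p = 6.27e-05). Its mean was over 1 CPM in compressed macrophages alone, where the lowest library had 0.833 CPM. Phosphorylation of ERK, JNK or p38 was not measured in these libraries.

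**Figure D4:**
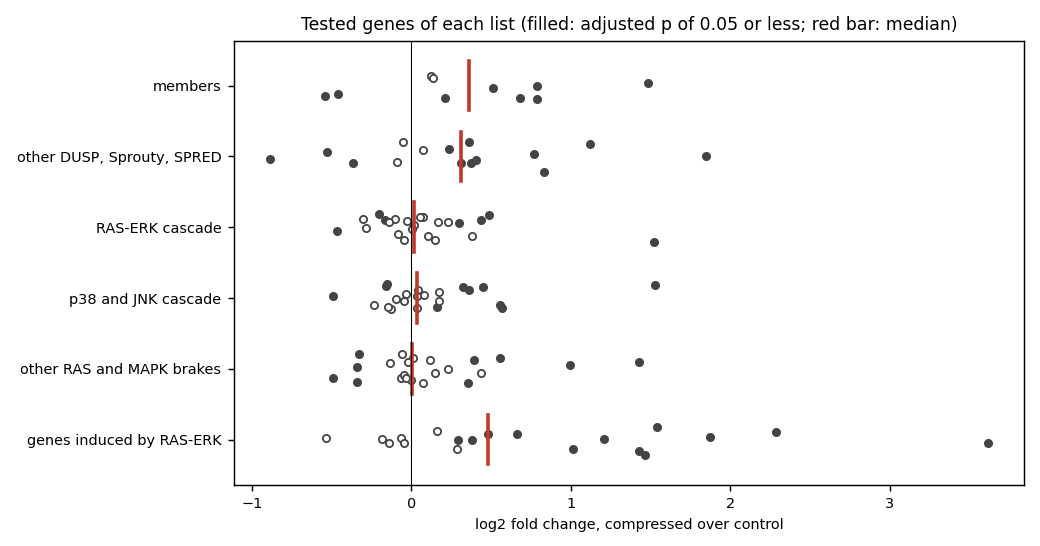
Log2 fold change (compressed over control) of the tested genes of each list, 1 point per gene, filled where edgeR's adjusted p was 0.05 or less, with the median as a red bar. The medians are 0.36 for the members, 0.31 for the other DUSP, Sprouty and SPRED genes and 0.48 for genes induced by RAS-ERK, against 0.01, 0.04 and 0.00 for the RAS-ERK cascade, the p38 and JNK cascade and the other brakes.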

How the data were processed

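RNA was sequenced from 6 compressed and 6 control samples of RAW264.7 macrophages. Per the submitters' processing notes, STAR 2.7.2 and GRCm39 were used. The authors deposited raw counts, 1 whole number for each Ensembl gene and sample. For the counting program, its strand setting and the annotation release, the entry is: not given in the sources used here. The 12 columns were matched to samples by label. Of 56941 IDs, 51948 were named through GENCODE M21 (GRCm38), and these held 99.5% of the counts.

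Software was edgeR 4.0.16 and DESeq2 1.42.0 under R 4.3.3, with limma 3.58.1, and Python 3.11.15. Genes were kept by filterByExpr (groups of 6, minimum count 10), scaled by TMM and tested by the quasi-likelihood F test on condition alone, with Benjamini-Hochberg adjusted p of 0.05 or less over 15001 genes. The SE was taken as the size of the log2 fold change divided by the root of F. It restates the test, as does the 95% interval. The pipeline was tested on simulated data. CPM per kilobase used GENCODE M21 exon length, and promoters came from RefSeq (GRCm38.p6). Same-numbered libraries correlated at -0.12 to 0.04 across all genes after removal of group means, so no pairing by number was seen over all genes. This does not test whether replicates 1 to 3 differed from replicates 4 to 6 in single genes. Values of Fos, Egr1 and Dusp1 by these sets are given below.

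The members, lists, member ratios and tests were chosen with earlier results of these data known. Named genes are the 10 members, up to 4 called genes of each list with the largest change whose mean reached 1 CPM in the group where they were higher, up to 2 called against the direction of most, and the 3 genes closest in profile to each member. Of these, 1 gene is not reported here. Alternatives were DESeq2, RLE, upper-quartile or no scaling factors, no filter, a mean normalized count over 50, a replicate block and leaving out each library. Depth gave 262 counts or more per group for each member.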

Additional observations from a re-analysis of the deposited data

Results flagged for a closer look

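In 4 members the value of compressed replicate 6 lay far from the other 5 compressed libraries. Its gap to the nearest of them, over the whole range of the 6, passed Dixon's 95% limit for 6 values. Dusp2 was at 17.7 CPM in replicate 6 and at most 10.6 CPM in the others (gap over range 0.876). Dusp4 was at 53.4 CPM, with the nearest at 110 CPM (0.858). Dusp16 was at 37.8 CPM, with the nearest at 69.1 CPM (0.816). Spred1 was at 483 CPM, with the nearest at 599 CPM (0.759). Of 30 groups of values checked, 4 passed the limit, where chance flags about 1 in 20, and these 4 share 1 library. The cause was not tested.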

How the results depend on the processing

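Over 19 alternatives, Dusp1, Dusp2, Dusp5, Dusp6, Dusp10, Dusp16 and Spry1 passed in 19, Spred1 in 18 (not with library size alone), Spry2 in 2 and Dusp4 in 1, and 0 of 645 values of the 34 genes followed changed direction. Of the members that passed in 19, Dusp2 came closest to the limit, with an edgeR adjusted p of 0.0477 under upper-quartile factors. Spry2 passed with upper-quartile factors (log2 fold change 0.19, edgeR adjusted p = 0.0355) and without compressed replicate 4 (0.17, adjusted p = 0.0440), and Dusp4 without compressed replicate 6. The log2 ratio of mean Dusp6 levels was 0.62 with raw library size. With any 1 library left out, 8 to 9 members, 6 to 17 RAS-ERK cascade genes (7 with all libraries), 9 to 15 p38 and JNK cascade genes (10), 9 to 15 other RAS and MAPK brakes (9) and 6385 to 9981 of all genes (6960) were called. The highest of these counts for the 2 cascades, the brakes and all genes (17, 15, 15 and 9981) were without compressed replicate 6, and the cause was not tested. With the replicate block, 8 members and 6393 of all genes were called, the adjusted p of Spred1 was 0.04997, and Gab2 did not pass. In the labels, the samples of a block share only a number. DESeq2 called 8 members and 7208 of all genes. Spry1 and Dusp10 rest on the fewest counts, 262 and 597 over the 6 compressed libraries.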

Other observations

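Genes with the profile closest to each member over the 12 libraries were taken by the root mean square difference of log2 CPM, centred on the control mean, among 10730 genes. For Dusp5 they were Cd74, the MHC class II invariant chain (difference 0.0785, log2 fold change 1.51), the kinase gene Pim2 (0.0936, 1.42) and Lxn (0.112, 1.37). For Dusp6 they were Plau, the urokinase-type plasminogen activator (0.0583, log2 fold change 0.67), Stap1 (0.065, 0.73) and the inflammatory caspase gene Casp4 (0.0668, 0.69). For Dusp16 they were Tbc1d9 (0.0552, log2 fold change 0.80), Tlr4, the lipopolysaccharide receptor (0.0694, 0.72), and Klhl24 (0.0756, 0.77). For Dusp1 the closest genes lay farther away: Actr3b (0.183), Chst1 (0.200) and Tarm1 (0.208). Fkbp11, Mettl1 and Ube2l6 were closest to Dusp2, Hdlbp, Zyg11b and Iqgap1 to Dusp4, Iba57, Phykpl and Slc11a1 to Dusp10, Ctdspl, Dbr1 and Ptp4a3 to Spry1, Nufip1, Csnk1g3 and Csnk2a1 to Spry2, and Kansl1l, Rnf6 and Kctd9 to Spred1. Genes were ranked on the same libraries, so these are descriptions.

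The parting of the Dusp1 controls was also seen in Fos, Egr1 and Ier2, immediate early genes of the list of genes induced by RAS-ERK. The early genes given here were named after their values were seen. Fos had 81.5 to 98.2 CPM in compressed replicates 1 to 3 and 50.4 to 58.8 CPM in compressed replicates 4 to 6, against 126 to 147 CPM in control replicates 1 to 3 and 60.8 to 73.2 CPM in control replicates 4 to 6. Egr1 had 112 to 125 CPM in compressed replicates 1 to 5 and 94.2 CPM in replicate 6, against 97.4 to 106 CPM in control replicates 1 to 3 and 72.1 to 73.6 CPM in control replicates 4 to 6. Ier2 had 54.1 to 60.8 CPM in control replicates 1 to 3 and 47.3 to 49.1 CPM in control replicates 4 to 6. In compressed libraries Ier2 had 40.6 to 45.9 CPM in replicates 1 to 3 and 42.0 to 69.4 CPM in replicates 4 to 6. Egr3 showed no such parting in controls, at 22.03 to 23.99 CPM in replicates 1 to 3 and 23.8 to 26.9 CPM in replicates 4 to 6. Of Dusp1 and these early genes, only Fos also parted by these sets in compressed libraries. Dusp1 itself had 23.7 to 30.5 CPM in compressed replicates 1 to 3 against 17.7 to 19.7 CPM in control replicates 1 to 3, and 22.9 to 29.4 CPM in compressed replicates 4 to 6 against 10.4 to 13.3 CPM in control replicates 4 to 6. It was thus higher in compressed macrophages within both sets of replicate numbers. The labels give no batch for these sets, and what they share was not tested. Over the 6 libraries of a group, Fos did not pass (log2 fold change -0.54, edgeR adjusted p = 0.102). With the replicate number as a block it did (log2 fold change -0.48, edgeR adjusted p = 0.00343), and its values were lower in compressed than in control libraries within each set.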
